A study of Drosophila melanogaster with 16 samples.

Results

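The 3 *GILT* genes of *Drosophila melanogaster*, *GILT1*, *GILT2* and *GILT3*, encode relatives of the mammalian γ-interferon-inducible lysosomal thiol reductase. They were followed as a small gene family in whole larvae of an α-amanitin-resistant and an α-amanitin-sensitive stock, by taking every probe set of the array that the platform's gene table assigns to one of them. Each gene had 1 probe set, so the family accounted for 3 of the 11982 genes with a probe set of their own. The family was chosen with the difference between the stocks already known, and that difference is therefore given as a description and not as a test.

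Larvae were raised from hatching on their food and frozen late in the last larval instar, while still feeding, and the RNA of 10 whole larvae was hybridised to each Affymetrix Drosophila Genome 2.0 array. There were 3 groups. Untreated larvae, fed non-toxic food, came from the sensitive wild-type stock Canton-S (5 pools) and from the resistant stock Ama-KTT/M/2 (5 pools), and further Ama-KTT/M/2 larvae received α-amanitin with their food (6 pools). The amount of toxin was 1.5 μg per g of food according to the methods, whereas the sample labels give the same figure in mg. α-Amanitin is a mushroom toxin that binds to and inhibits RNA polymerase II. The isochromosome stock Ama-KTT/M/2 was obtained by crossing Ama-KTT flies from Taiwan to a multi-balancer stock, and is isogenic for chromosomes 2 and 3 but not for the X chromosome. It represents a single genotype of each of these autosomes, and Canton-S differs from it in its whole genetic background. Canton-S larvae on toxic food were not analysed here, and the sex of the larvae was not given in the sources used here. Pools were picked at random across the tubes of a group on 1 morning. The p-values therefore reflect the variation among such pools and not between separately reared cultures. According to the methods, some larvae died, growth was slower on the toxin, and rearing had begun on 3 successive days. Whether the groups matched in age and developmental stage when frozen was not tested.

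In mammals, the founding member of the family works in the acidic lumen of lysosomes and late endosomes. It reduces the disulfide bonds of internalised proteins through a pair of active-site cysteines, which opens these proteins to the cathepsins and other lysosomal proteases. It is best known for the processing of antigens, an adaptive immune function that flies lack, and in *Drosophila* members of the family have been linked to the defence against bacteria.

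On the Release 6 assembly, all 3 genes lie on chromosome arm 3R. *GILT3* (CG13822, 23677358 to 23678421) and *GILT2* (CG10157, 23678895 to 23679855) are direct neighbours with 473 bases between them, while *GILT1* (CG9796, 13398526 to 13401862) lies 10.3 Mb away from the pair.

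The deposited values were intensities on a linear scale. The median of all probe sets ranged from 62.4 to 72.9 over the 16 arrays, and 19.3% to 22.9% of the probe sets on an array lay under an intensity of 16, which was taken as the floor. Differences were computed on log2(intensity + 16) in limma, a linear model fitted to every probe set, with p-values adjusted by Benjamini-Hochberg over 18769 probe sets and a threshold of 0.05. Because of the added 16, a fold change of a dim gene is understated on this scale. Intensities of different probe sets were not compared with each other. The stocks differ in genotype, and whether the probes bind the transcripts of both stocks equally well was not tested. In RNA of whole larvae, fewer cells of a type and less RNA per cell cannot be told apart.

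The 3 genes followed 3 different patterns over the groups. *GILT2* was near the bottom of the array's range in Canton-S and bright in Ama-KTT/M/2, *GILT3* was highest in Canton-S, and *GILT1* stayed within a narrow range in all larvae. On the toxin, *GILT2* and *GILT3* both rose 1.65-fold in the resistant stock.

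*GILT2* had intensities of 38.6, 37.0, 36.3, 30.5 and 32.4 in the 5 Canton-S pools. The 5 untreated Ama-KTT/M/2 pools had intensities of 2338, 2611, 2188, 2186 and 2327. Every pool of the resistant stock lay far above every Canton-S pool, and the pools within each stock stayed close together. The group means were 35.0 ± 3.39 (SD, n = 5) in Canton-S and 2330 ± 173 (SD, n = 5) in Ama-KTT/M/2. The difference was 5.52 ± 0.22 (SE) on the log2(intensity + 16) scale, a 46.0-fold higher level in the resistant stock, and the plain ratio of the mean intensities was 66.6. In this comparison *GILT2* ranked 9th among the probe sets that were higher in Ama-KTT/M/2, with 0.048% of all probe sets at least as far up.

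*GILT3* lay on the opposite side. Its intensities were 591, 556, 527, 520 and 544 in the Canton-S pools, with a mean of 548 ± 28 (SD, n = 5). In the untreated Ama-KTT/M/2 pools they were 211, 254, 239, 233 and 242, with a mean of 236 ± 15.8 (SD, n = 5). The highest Ama-KTT/M/2 pool was thus less bright than the lowest Canton-S pool. The difference was -1.16 ± 0.15 (SE) on the log2 scale, 2.24-fold lower in Ama-KTT/M/2, and 1.93% of all probe sets were at least as far down.

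*GILT1* had intensities of 1966, 1905, 1654, 1681 and 1768 in Canton-S, with a mean of 1795 ± 137 (SD, n = 5). In untreated Ama-KTT/M/2 they were 2059, 1830, 1977, 2084 and 2128, with a mean of 2016 ± 117 (SD, n = 5). These groups overlapped, since the lowest Ama-KTT/M/2 pool was below the 2 highest Canton-S pools. The difference was 0.17 ± 0.06 (SE) on the log2 scale. The groups did not overlap for 2 of the 3 genes, *GILT2* and *GILT3*, in a comparison in which 43.4% of all probe sets passed the limma threshold and 5.68% did so with at least a 2-fold difference. The share of all probe sets without overlap is not given here. Nothing is read from this count, as the genes were chosen on this contrast.

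**Figure D1:**
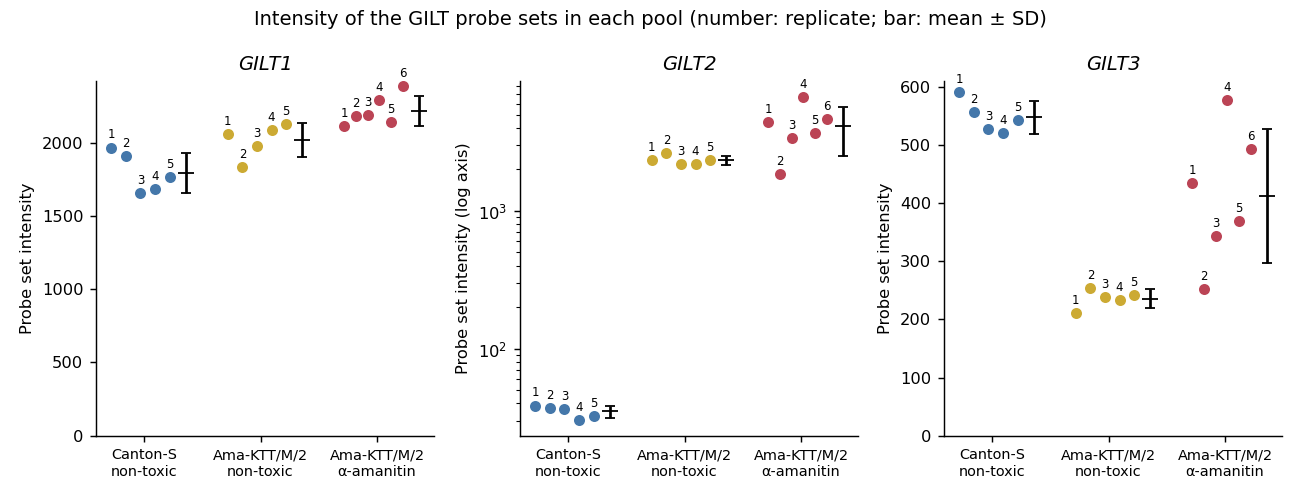
Intensity of the *GILT1*, *GILT2* and *GILT3* probe sets in each pool of 10 larvae, by group (vertical axis: intensity, on a log axis for *GILT2*). Points are pools with their replicate number, and the bars give the mean ± SD (n = 5, 5 and 6). *GILT2* moved from 30.5 to 38.6 in Canton-S to 1852 to 6693 in Ama-KTT/M/2 on the toxin, and the toxin pools of *GILT2* and *GILT3* are spread far wider than those of *GILT1*.

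The comparison of Ama-KTT/M/2 larvae on toxic and on non-toxic food asked which genes respond to α-amanitin, and it was tested for all 3 genes. It shares the untreated Ama-KTT/M/2 pools with the stock comparison on which the genes were chosen. Its p-values are therefore not independent of that choice. *GILT2* had intensities of 4424, 1852, 3361, 6693, 3694 and 4677 in toxin pools 1 to 6. Pool 2 was lower than all 5 non-toxic pools and the other 5 toxin pools were higher than all of them, so that the groups overlapped through a single pool. The mean on the toxin was 4117 ± 1608 (SD, n = 6) against 2330 ± 173 (SD, n = 5) without it, a rise of 0.72 ± 0.21 (SE) on the log2 scale or 1.65-fold (limma, adjusted p = 0.016). A two-sided exact permutation test of the *GILT2* values over all 462 splits of the pools gave p = 0.0325, not adjusted. Without toxin pool 2, the difference of *GILT2* was 0.93 on the log2 scale. With the replicate number as a block in the model, although the numbers did not pair the pools, the call of *GILT2* was lost (0.66, limma adjusted p = 0.0548).

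*GILT3* had intensities of 434, 253, 343, 578, 370 and 494 in toxin pools 1 to 6. Here too, pool 2 was the only toxin pool that fell within the range of the non-toxic pools. The mean of 412 ± 115 (SD, n = 6) compared with 236 ± 15.8 (SD, n = 5) on non-toxic food, which was a rise of 0.72 ± 0.14 (SE) on the log2 scale or 1.65-fold (limma, adjusted p = 0.00118). The exact permutation test gave p = 0.00649 for *GILT3*, not adjusted, and without toxin pool 2 the difference was 0.85. Of the other toxin pools of *GILT3*, 4 lay between the levels that the stocks had on non-toxic food, and pool 4, the brightest, reached the range of the Canton-S pools.

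*GILT1* had intensities of 2115, 2183, 2185, 2289, 2139 and 2383 in toxin pools 1 to 6, with a mean of 2216 ± 101 (SD, n = 6). Of these 6 pools, 5 were brighter than every non-toxic pool of the stock, while pool 1 was within their range. The difference of 0.14 ± 0.06 (SE) on the log2 scale did not pass the threshold over all probe sets (limma, adjusted p = 0.0829), with an unadjusted exact permutation p of 0.00649. Another quantile normalization of the arrays brought it past the threshold, to 0.17 with an adjusted p of 0.0305.

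Thus 2 of the 3 genes rose on the toxin and none fell, where 17.7% of all probe sets rose and 34.2% changed in either direction. Neither rise reached 2-fold, while 2.94% of all probe sets passed with at least that change. Set against Canton-S, which shares its pools with the first comparison, Ama-KTT/M/2 on the toxin differed by 6.24 ± 0.21 (SE) in *GILT2*, by -0.44 ± 0.14 in *GILT3* and by 0.30 ± 0.06 in *GILT1*, all on the log2 scale. The pools did not overlap for *GILT2* and *GILT1* and overlapped for *GILT3*. The share of all probe sets without overlap is not given here, and 30.7% of them passed the limma threshold in this comparison. In order of level, *GILT2* therefore ran from Canton-S through untreated Ama-KTT/M/2 to Ama-KTT/M/2 on the toxin. *GILT1* had the same order with neighbouring groups that overlapped, and *GILT3* ran from untreated Ama-KTT/M/2 through the toxin pools to Canton-S.

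The toxin pools differed from each other in *GILT2* and *GILT3* much more than pools of the other groups did. On the log2 scale the SD of *GILT2* was 0.615 over the 6 toxin pools, with the brightest pool 3.61 times the dimmest, compared with 0.104 in untreated Ama-KTT/M/2 and 0.097 in Canton-S. The SD of *GILT3* was 0.404 on the toxin, compared with 0.092 and 0.071. The median SD of the 9715 probe sets with a mean intensity of at least 64 in the toxin pools was 0.117, and 97.3% of them varied no more than *GILT2* did and 93.9% no more than *GILT3*. *GILT1* was steadier than most, with an SD of 0.065 on the toxin.

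*GILT2* and *GILT3* varied together over these pools. From the dimmest to the brightest, the order of the toxin pools was 2, 3, 5, 1, 6 and 4 for both genes. Over the 6 pools their log2 values had a Pearson r of 0.983 (exact permutation p = 0.00139, adjusted p = 0.00694) and a Spearman rho of 1.0 (exact permutation p = 0.00278, adjusted p = 0.0139). These p-values were adjusted over 15 relations, those among the 3 genes and between each gene and 4 lists of tissue markers, which were computed after the pool values had been seen. Without pools 2 and 4, which were farthest from the median of *GILT2*, r was 0.982, and leaving out each pool in turn gave 0.972 to 0.992. Of the other 9714 bright probe sets, 0.525% followed *GILT2* at least as closely as *GILT3* did. The relation of *GILT1* to *GILT2* (r = 0.415, rho = 0.429, adjusted permutation p = 0.559 and 0.524) and to *GILT3* (r = 0.538, rho = 0.429, adjusted permutation p = 0.534 and 0.524) did not pass, and both changed sign without toxin pools 4 and 6, to -0.75 and -0.82.

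Markers of other tissues were summed in each pool beside these values. The 6 *Sgs* genes, which encode the glue proteins that the salivary gland makes late in the last larval instar, had a summed intensity of 1640 to 26440 in the Canton-S pools. In untreated Ama-KTT/M/2 the sum was 6.04 to 14.5, and all 6 genes were under 16. On the toxin it was 35210, 8.04, 32380, 51930, 32910 and 46900 in pools 1 to 6. Toxin pool 2, the dimmest for *GILT2* and *GILT3*, was thus also the only toxin pool without a glue signal, and the order of all 6 pools by the glue sum was the same as by *GILT2* and *GILT3*. Of the 9715 bright probe sets, 127 (1.31%), *GILT2* and *GILT3* included, had this order. Both genes had a Spearman rho of 1.0 with the glue sum, which restates this order (exact permutation test, adjusted p = 0.0139 for each). Pearson r was 0.862 for *GILT2* and 0.796 for *GILT3* (exact permutation test, adjusted p = 0.00694 for each). Of the other 9714 bright probe sets, 8.78% followed *GILT2* and 12.9% followed *GILT3* at least as closely as the glue sum did. Pool 2 stood apart from the other 5 in the glue sum, and r over all 6 pools spans this gap. Without pools 2 and 4, r was 0.811 for *GILT2* and 0.907 for *GILT3*, over too few pools for a test of their own. *GILT3* was high in the groups with glue signal and low in the group without it, whereas *GILT2* was at 35.0 in Canton-S, where the glue genes were on.

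Of the 6 fat body markers 3 had a probe set of their own, *Lsp2*, *Fbp1* and *Fbp2*. Whether their sum follows the amount of fat body or the developmental stage was not tested. This sum was 12730 to 28780 in Canton-S and 11.9 to 1221 in untreated Ama-KTT/M/2, where *Fbp1* and *Fbp2* were under 16. On the toxin it was 2795 in pool 2 and 16510 to 31570 in the other pools. The sum of 11 of 12 hemocyte markers was 8255 to 11420 in Canton-S, 5144 to 7419 in untreated Ama-KTT/M/2 and 7664 to 10870 on the toxin, and *ItgaPS4* alone among them was under 16, in both groups of Ama-KTT/M/2. Between the stocks 8 of the 11 were lower in Ama-KTT/M/2, where 20.3% of all genes were lower. *NimC1*, a phagocytosis receptor, was higher by 1.71. With the toxin 7 of these hemocyte markers rose and 0 fell, where 21.0% of all genes rose. The sum of 11 of 17 midgut markers was 68040 to 74790, 58950 to 66930 and 52510 to 62210 in these groups, with none under 16. Between the stocks 6 of these 11 midgut markers were lower in Ama-KTT/M/2 and 1 was higher. On the toxin 3 of them rose, each over 2-fold (*thetaTry*, *Jon99Ci* and *Mal-A1*), and 5 fell, where 19.6% of all genes fell. Over the toxin pools neither *GILT2* nor *GILT3* had a relation to the hemocyte, midgut or fat body sum that passed (adjusted permutation p of 0.0903 or more for r). With the fat body sum r was nevertheless 0.873 for *GILT2* and 0.809 for *GILT3*, no lower than with the glue sum. Without pools 2 and 4 these values were -0.17 and -0.03. A relation particular to the glue genes is therefore not shown. The part of these tissues, and of the developmental stage that the glue genes mark, in the levels of the *GILT* genes was not tested.

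**Figure D2:**
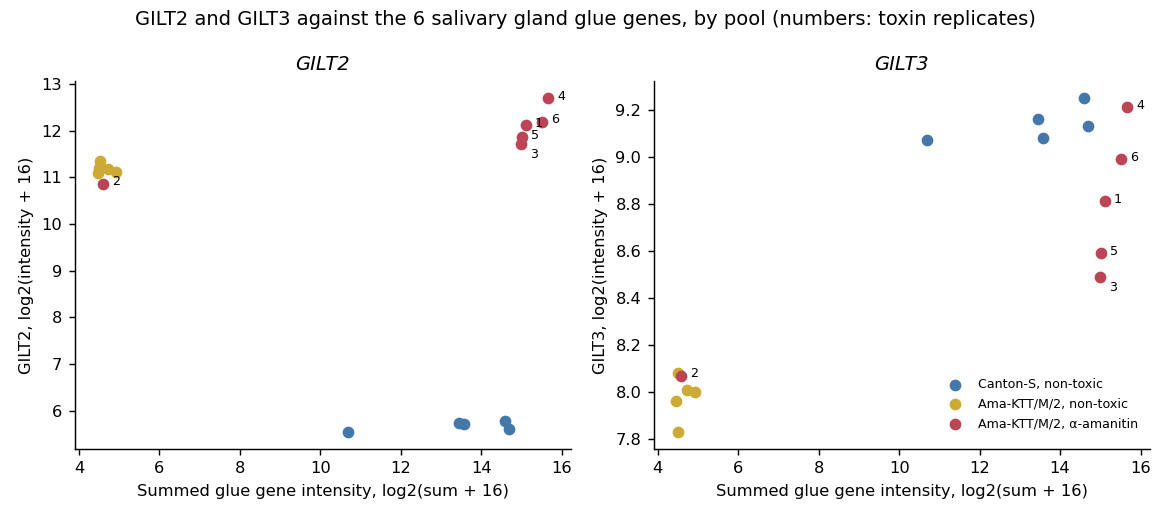
*GILT2* (left) and *GILT3* (right) against the summed intensity of 6 salivary gland glue genes, each as log2(value + 16), with 1 point for each pool of 10 larvae. Toxin pools carry their replicate number. Toxin pool 2 lies among the pools of untreated Ama-KTT/M/2 in the right panel and just under them in the left, and Canton-S stands low for *GILT2* with high glue sums.

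*GILT2* and *GILT3* share a short stretch of the chromosome, so the 10 genes with a probe set that flank the pair were read from the same fit. None of the 10 differed by 2-fold between the stocks, and their differences ranged from -0.32 to 0.83 on the log2 scale. In Ama-KTT/M/2 3 were higher and 1 was lower, and 6 did not pass, where 43.4% of all probe sets passed. *eIF3d1*, a translation initiation factor subunit whose gene begins 183 bases beyond *GILT2*, was higher by 0.83 ± 0.05 (SE, limma adjusted p = 1.79e-09). *SPE*, the protease that activates the Toll ligand Spätzle, was higher by 0.66 ± 0.24 (limma adjusted p = 0.0376), a call that was lost without Canton-S pool 1, 3, 4 or 5 or Ama-KTT/M/2 pool 2 (adjusted p up to 0.103). The other 2 that passed were *CG10254*, at 0.39, and *CG10184*, at -0.31, the latter no longer without Canton-S pool 1, 2, 3 or 4 or Ama-KTT/M/2 pool 1, 2 or 3 (adjusted p up to 0.112).

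On the toxin, 1 of these 10 neighbours rose and 3 fell. *CG10184* rose by 0.58 ± 0.11 (limma adjusted p = 9.26e-04), *CG10182* was at -1.43 ± 0.10 (limma adjusted p = 2.08e-08) and *eIF3d1* was at -0.22 ± 0.05 (limma adjusted p = 0.00283). *CG16710* was under 16 in all 3 groups, so its call has no measured level behind it. These 4 of 10 compare with 34.2% of all probe sets that changed on the toxin, and the 1 that rose with 17.7%.

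**Figure D3:**
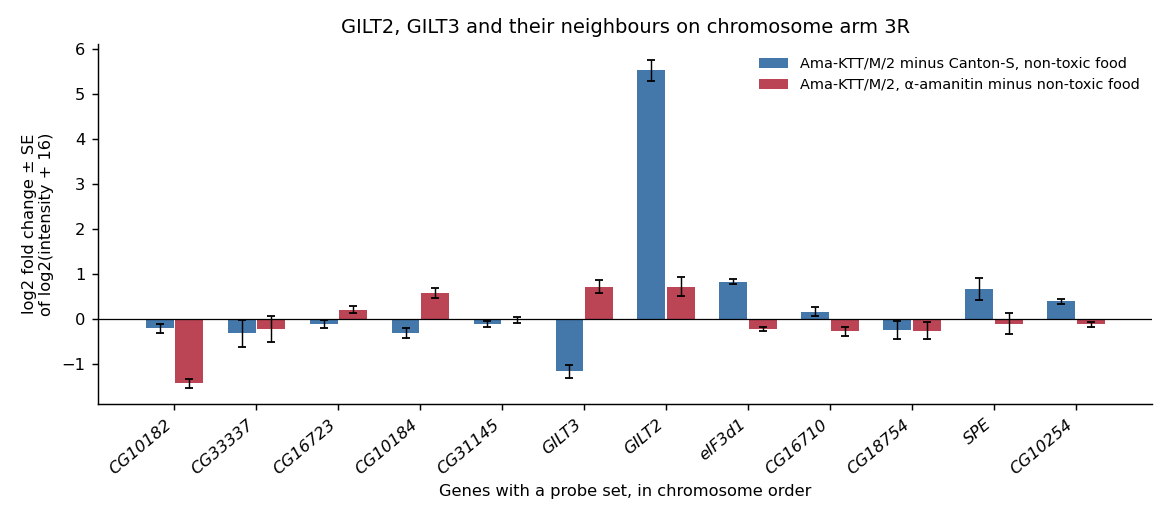
Differences in log2(intensity + 16), with their SE, for *GILT3*, *GILT2* and the 10 flanking genes on 3R, in chromosome order and not to distance. Blue bars compare the untreated stocks, Ama-KTT/M/2 minus Canton-S, and red bars compare Ama-KTT/M/2 with and without the toxin. *GILT2* and *GILT3* differ in opposite directions between the stocks (5.52 and -1.16) and in the same direction on the toxin (0.72 each).

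Around *GILT1*, 5 of 10 flanking genes were higher in Ama-KTT/M/2, 2 were lower and 3 did not pass. Among the higher calls, that of *Ir87a* has no measured level behind it, since the gene was under 16 in both stocks. The 2 lower ones were *yellow-e*, of the yellow family of secreted proteins, at -1.36 ± 0.23 (limma adjusted p = 1.12e-04), and the muscle actin gene *Act87E* at -0.67 ± 0.12 (limma adjusted p = 2.27e-04). Both rose on the toxin, *yellow-e* by 1.36 ± 0.22 (limma adjusted p = 1.73e-04) and *Act87E* by 0.74 ± 0.11 (limma adjusted p = 1.40e-04). Of the other flanking genes, *yellow-e2* also rose on the toxin, 4 fell and 3 did not pass. With 7 of 10 called in each comparison, these compare with 43.4% and 34.2% of all probe sets. *GILT1* itself, with 0.17 and 0.14 in these comparisons, had a smaller change in both than *yellow-e* and *Act87E*.

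The genes with profiles nearest to each member over the 16 pools differed between the members. Nearness was the root mean square difference of the log2 values after each profile was centred, among probe sets with 1 gene and a group mean of 64 or more. Nearest to *GILT2* were *Cyp12d1-d* (0.427), which encodes a cytochrome P450, *CG1304* (0.549), *Acbp2* (0.566), of the acyl-CoA binding proteins, *CG31157* (0.610) and *Map205* (0.633), a microtubule-associated protein. Of these 5, *Cyp12d1-d*, *CG1304* and *Map205* were under 16 in Canton-S, and *CG31157* was at 32.6 there. As these means were under 64, all of these but *Acbp2* entered through their level in Ama-KTT/M/2 alone. The mean intensity of *Cyp12d1-d* was under 16 in Canton-S (5.58 ± 2.88, SD, n = 5), 1563 ± 109 (SD, n = 5) in Ama-KTT/M/2 and 2581 ± 469 (SD, n = 6) on the toxin. These 5 genes had the gap between the stocks in common with *GILT2*, by which they were selected, but not always the rise on the toxin: *Acbp2* differed by 0.03 ± 0.09 (SE) there.

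Nearest to *GILT3* were *Tango2* (0.138), named for a role in Golgi organization, *sPLA2* (0.141), a secreted phospholipase, *l(2)efl* (0.143), a small heat shock protein, *AANATL2* (0.154), of the arylalkylamine N-acetyltransferase family, and *eEF1alpha2* (0.165), a translation elongation factor. *Tango2* had a mean intensity of 565 ± 43.8 (SD, n = 5) in Canton-S, 295 ± 29.1 (SD, n = 5) in Ama-KTT/M/2 and 452 ± 102 (SD, n = 6) on the toxin. Nearest to *GILT1* were *Synj* (0.063), a phosphoinositide phosphatase of synaptic vesicle recycling, *Taf1* (0.064), a subunit of the general transcription factor TFIID, *nac* (0.066), a GDP-fucose transporter, *Spf30* (0.066), a splicing factor, and *emb* (0.069), a nuclear exportin. *GILT2* and *GILT3* were far from each other on this measure (3.10), with 8223 of 8665 probe sets nearer to *GILT2* than *GILT3* was. The median distance of these probe sets from *GILT2* was already 2.75. The measure includes the stock difference on which the genes were chosen, so nothing is read from this distance.

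Of the relatives of the family outside the 3 genes, *CG9427* had a probe set of its own. Its mean intensity was 221 ± 14.2 (SD, n = 5) in Canton-S, 326 ± 22.4 (SD, n = 5) in Ama-KTT/M/2 and 301 ± 13.9 (SD, n = 6) on the toxin. It was higher by 0.53 ± 0.06 (SE) in Ama-KTT/M/2 (limma adjusted p = 1.84e-06), and the difference of -0.11 ± 0.06 on the toxin did not pass (limma adjusted p = 0.143).

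Cathepsins are the proteases of the lysosome on whose substrates the mammalian reductase acts. On non-toxic food, of 21 measured genes of cathepsin type, 3 were higher in Ama-KTT/M/2, 9 were lower and 9 did not pass. In 6 of the 21, *CG6508* among the 9 lower ones included, the mean was under 16 in both stocks, so that the median difference of all 21 moved with the offset (-0.11 with 16, -0.29 with 1 and -0.03 with 64). Over the 15 others it was -0.32 on the log2 scale. Over all 11982 genes, 28.7% were higher and 20.3% lower, with a median of 0.02. The aspartic protease gene *CG33128* was at -1.22 ± 0.06 (SE, limma adjusted p = 6.66e-11), *CtsK1* at -0.95 ± 0.07 (limma adjusted p = 3.38e-08) and cathepsin B, *CtsB*, at -0.76 ± 0.08 (limma adjusted p = 1.35e-06), while *CG31928*, another aspartic protease gene, was at 0.60 ± 0.14 (limma adjusted p = 0.00179).

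On the toxin 8 of these 21 rose, 1 fell and 12 did not pass, where 21.0% of all genes rose and 19.6% fell, with a median of 0.02. The median of all 21 was 0.12 with an offset of 16, 0.24 with 1 and 0.06 with 64, as 6 of them were under 16 with and without the toxin, and over the 15 others it was 0.26. *CtsB* rose by 0.94 ± 0.08 (SE, limma adjusted p = 3.29e-07), *cathD*, which encodes cathepsin D, by 0.77 ± 0.10 (limma adjusted p = 3.08e-05), *CtsK1* by 0.69 ± 0.07 (limma adjusted p = 3.28e-06) and *CtsK2* by 0.68 ± 0.11 (limma adjusted p = 1.34e-04). For each of these 4 genes, every toxin pool was brighter than every non-toxic pool of the stock, also toxin pool 2. In 3 of them, *CtsB*, *cathD* and *CtsK1*, the stock difference was negative and the toxin difference positive, as it was for *GILT3*. Comparisons that share the untreated Ama-KTT/M/2 pools are not independent of each other.

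Among 28 measured genes of other lysosomal hydrolases and membrane proteins, 3 were higher in untreated Ama-KTT/M/2, 12 were lower and 13 did not pass, with a median of -0.22. Of all genes, 28.7% were higher and 20.3% were lower. On the toxin 19 rose, 6 of them at least 2-fold, 1 fell and 8 did not pass, with a median of 0.41. Of all genes, 21.0% rose and 19.6% fell, and 277 of 11982 rose at least 2-fold. The largest changes were those of lysosomal α-mannosidase genes. *LManIII* had a mean of 2041 ± 562 (SD, n = 5) in Canton-S, 140 ± 50.4 (SD, n = 5) in Ama-KTT/M/2 and 2790 ± 709 (SD, n = 6) on the toxin, where it rose by 4.18 ± 0.24 (SE, limma adjusted p = 3.14e-09). *LManV* rose by 3.05 ± 0.22 (limma adjusted p = 6.35e-08) after a stock difference of -3.53, and *LManVI* rose by 1.97 ± 0.23 (limma adjusted p = 1.27e-05) after one of -2.68. *LManIV* was under 16 in untreated Ama-KTT/M/2 and reached 197 ± 66.7 (SD, n = 6) on the toxin, at least 12.3-fold higher. *Gal*, a β-galactosidase gene, rose by 1.22 and the lipase gene *mag* by 1.18. Without toxin pool 2, 18 of these 28 genes rose and 1 fell, and among the cathepsin-type genes the counts were 8 and 1.

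Thiol-disulfide oxidoreductases of other compartments, such as thioredoxins and protein disulfide isomerases, were the list closest to the reductases in chemistry. Of 28 measured, 7 (25.0%) were higher in Ama-KTT/M/2, 5 (17.9%) were lower and 16 did not pass, with a median of 0.05. These shares were near the 28.7% and 20.3% of all genes. On the toxin 6 (21.4%) rose, 4 (14.3%) fell and 18 did not pass, with a median of 0.07, where 21.0% of all genes rose and 19.6% fell. *wbl*, a relative of the disulfide isomerases of the endoplasmic reticulum, was higher in Ama-KTT/M/2 by 1.16 ± 0.08 (SE, limma adjusted p = 8.27e-09), and *Alr*, a sulfhydryl oxidase of mitochondria, by 0.96 ± 0.12 (limma adjusted p = 6.48e-06). The thioredoxin gene *CG13473* was higher by 0.57 and *Trxr1*, thioredoxin reductase, by 0.45.

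On the toxin *Alr* was at -1.13 ± 0.12 (SE, limma adjusted p = 3.02e-06). *CG8517*, of the thioredoxin family, rose by 0.80 ± 0.19 (limma adjusted p = 0.00356). *TrxT*, a thioredoxin of the male germline, rose by 1.00 ± 0.37 (limma adjusted p = 0.0458), with groups that overlapped. Its call was lost without non-toxic pool 1, 2 or 3 or toxin pool 1, 4, 5 or 6 (adjusted p up to 0.119). *Qsox3*, a sulfhydryl oxidase gene that was under 16 in untreated Ama-KTT/M/2, was at least 1.44-fold higher on the toxin. *GILT2*, at 5.52 between the stocks, lay above every one of the 77 listed genes in that comparison. At 0.72 on the toxin, *GILT2* and *GILT3* lay within the range of each of the 3 lists.

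**Figure D4:**
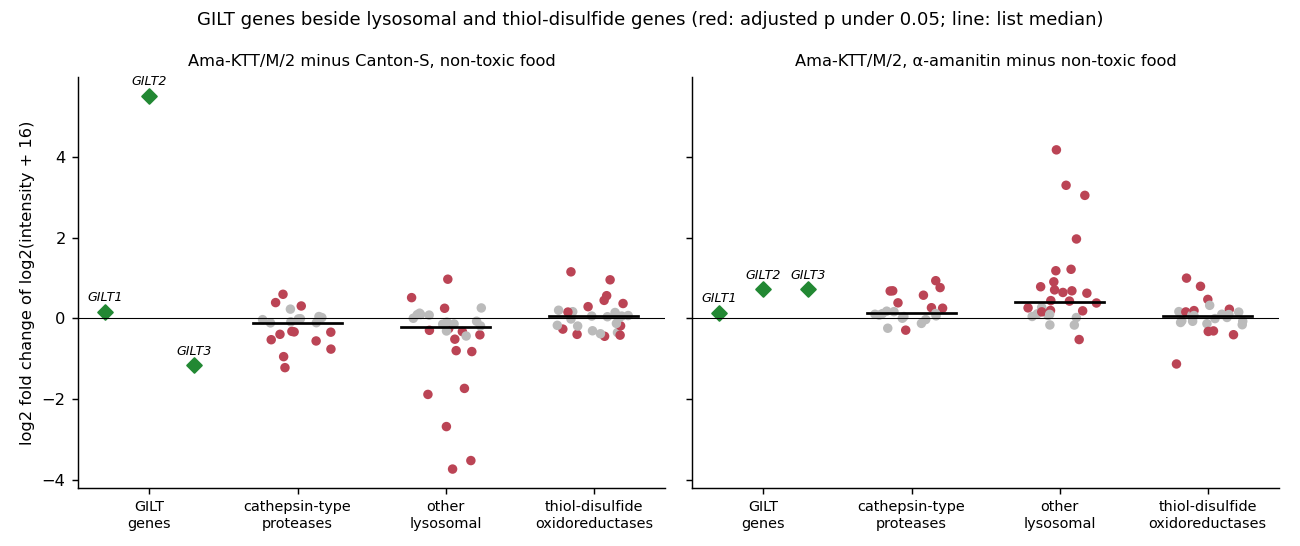
Differences in log2(intensity + 16) of the *GILT* genes (green diamonds) and of the genes of 3 lists, for the untreated stocks, Ama-KTT/M/2 minus Canton-S (left) and for Ama-KTT/M/2 with against without the toxin (right). Each point is a gene, red where the limma adjusted p was under 0.05, and black lines are list medians. In the lysosomal list 19 of 28 genes rose and 1 fell on the toxin, where 21.0% of all genes rose and 19.6% fell. *GILT2* stands above all listed genes on the left.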

How the data were processed

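Array images were read by the authors in Affymetrix Expression Console 1.2, and the deposited values were calculated with Affymetrix Power Tools, by quantile normalization between arrays, correction with the mismatch probes and PLIER summarisation. These deposited intensity values are linear, and none of the table's columns was left unmapped (0). Controls (183 of 18952 probe sets) were removed. Probe sets were named through the platform's table and the Release 6 gene table: 13647 had 1 gene, 402 several and 4720 none named here. A gene was represented by its brightest probe set. Groups were compared on log2(intensity + 16) over all 16 arrays in limma 3.58.1 (R 4.3.3), which was tested on simulated data. The package for rank products, which the methods used, was not run. Exact permutation tests were two-sided (Python 3.11.15, numpy 2.4.6, pandas 2.3.3), and figures were drawn in matplotlib 3.10.9. The number of arrays limits the precision.

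The members and gene lists (cathepsin-type proteases, other lysosomal proteins, thiol-disulfide oxidoreductases, relatives and markers of 4 tissues) were chosen with earlier results of these data known. Named were the members, 5 flanking genes on each side, the 5 nearest profiles, and the 4 largest changes that passed in each list. Flanking genes beside these are given as counts. Protein and promoter sequences were not used here. Alternatives were offsets of 1 and 64, a minimum mean of 64, another quantile normalization, the replicate number as a block, only the compared groups, and each pool left out in turn. The relation of *GILT2* to *GILT3* over the toxin pools, and the lists without toxin pool 2, were added after seeing the data.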

Additional observations from a re-analysis of the deposited data

Results flagged for a closer look

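Of 21 groups of pools examined for a pool far from the others on the log2 scale, the 3 genes and 4 marker sums in each of 3 groups, 3 had such a pool, and chance alone flags about 1 in 20. None of them concerned a *GILT* gene. The salivary gland glue sum of toxin pool 2 was 8.04, with a gap to the next pool that made up 0.939 of the whole range of the toxin pools. The fat body sum of the same pool was 2795 (0.732 of the range), and the fat body sum of pool 5 of untreated Ama-KTT/M/2 was 1221 (0.780 of the range). Toxin pool 2 was also the dimmest toxin pool for *GILT2* (1852) and *GILT3* (253), but within the limits of the same rule for both.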

How the results depend on the processing

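*GILT2* between the stocks was 6.02 with an offset of 1 and 4.59 with an offset of 64, and on the toxin against Canton-S 6.74 and 5.30. On the toxin, the call of *GILT2* was lost with the replicate number as a block (0.66, adjusted p = 0.0548), and *GILT1* passed after another quantile normalization (0.17, adjusted p = 0.0305). The numbers did not pair the pools: 5 of 15 same-number pairs correlated over 0.1 (-0.417 to 0.271). Of 15 samples, 0 correlated best with its own number in every other group at once. Under the block 2701 probe sets rose and 2671 fell, against 3321 and 3090 without it. *GILT3* kept its call under every alternative.

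With each pool left out in turn, the toxin difference was 0.56 to 0.93 for *GILT2* (adjusted p 9.5e-05 to 0.0358), 0.62 to 0.85 for *GILT3* (3.08e-05 to 0.00447) and 0.10 to 0.16 for *GILT1* (0.0696 to 0.206). Stock differences were 5.48 to 5.55, -1.19 to -1.13 and 0.14 to 0.20.

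Counts of probe sets at least 2-fold changed moved with the offset. Between the stocks, offset 64 left 383 higher and 266 lower (613 and 454 with 16), and offset 1 gave 823 lower. On the toxin, offset 1 gave 738 that rose (344 with 16), and offset 64 left 195 that rose and 138 that fell. Against Canton-S, offset 1 gave 521 higher and offset 64 left 179 higher and 189 lower. Of the lysosomal genes, 2 fell with offset 64, against 1. Of 1230 values of named genes under the alternatives, 65 (in 12 comparisons) lost the call and 0 turned direction. The cause of these changes was not tested. At 35.0 in Canton-S *GILT2* was close to the floor of 16, and this limits its fold change.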
